A study of Rattus norvegicus with 288 samples.

Results

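Cdkn1a, Ccng1, Rps27l, Bax and Mdm2 are transcriptional targets of the tumor suppressor p53, and their signals were followed in rats given temsirolimus, sunitinib, sorafenib or a temsirolimus pair. The members were the probe sets annotated to one of these symbols and no other on an Affymetrix rat array, taking in each tissue the probe set with the highest mean. This rule gave values for 4 of the 5 genes, among 14218 genes measured in each tissue. The only probe set listed for Bax, a pore-forming promoter of apoptosis, is also annotated to another locus, so no value for Bax is given.

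The 96 male Sprague-Dawley rats, 7 to 8 weeks of age and fitted with a femoral vein cannula, formed 24 groups of 4. Each rat had one intravenous dose of temsirolimus at 0.3 mg/kg, an inhibitor of the growth kinase mTOR, or of its vehicle (TEM vehicle). An oral dose followed 30 min later. It was sunitinib at 5 mg/kg or its vehicle, sterile water, or it was sorafenib at 25 mg/kg or its vehicle, a mixture of Pluronic F68, propylene glycol and PEG400 (F68/PG/PEG400). Sunitinib and sorafenib are inhibitors of several receptor tyrosine kinases. The 8 treatments were thus both vehicles with either oral vehicle, each single agent with the vehicle of the other route, and temsirolimus with sunitinib or with sorafenib. Rats were killed 1, 6 or 24 h after dosing, and bone marrow of the left femur, the ventricles at the apex of the heart, and liver were profiled, which gave 288 arrays. Dosing was spread over consecutive days, with part of each dose group dosed on each day, and each rat was dosed on only 1 of them. Which rats were dosed on which day is not stated in the sources used here.

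In unstressed cells p53 protein is kept low, because Mdm2 binds it and marks it for degradation. DNA damage and other stresses free p53, which then binds DNA as a tetramer and raises transcription of its targets. Cdkn1a encodes p21, which stops cyclin-dependent kinases and so the cell cycle. Ccng1 encodes cyclin G1, a partner of protein phosphatase 2A that acts on Mdm2. Rps27l is a paralog of the ribosomal protein Rps27 and is known to bind Mdm2. Since Mdm2 is both a target and the main inhibitor of p53, it closes a feedback loop. Transcription of Cdkn1a is also under p53-independent control by growth factors, glucocorticoids, nutrients and differentiation.

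The DNA before the start of transcription is shown for Cdkn1a and Ccng1, because theirs were the windows in which a p53 response element was found. RefSeq start sites on the rat build GRCr8 were matched for 4 of the 5 genes, Cdkn1a, Mdm2, Ccng1 and Rps27l, and the 250 bases before each start were searched for the p53 response element of 20 bases, allowing 1 letter off. The element reads the same on both strands, so 1 scan covered both. It was found in 20 of 33469 such windows of all genes (0.0598%), including those of Cdkn1a and Ccng1. It was not found in the windows of Mdm2 and Rps27l, whose best matches were 6 and 4 letters off. The whole Mdm2 window lies within the annotated span of its gene. DNA outside these windows, such as introns further along, was not searched for any gene. A match is a description of the letters and not evidence of binding.

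The sequences run 5′ to 3′ on the strand of the gene, and the capitals mark the matched element. Of the 250 bases of the Cdkn1a window the first 138 are shown, chr20:7150682-7150819 (plus strand). The rest of that window lies within the annotated gene span, which begins before the start used here, and is not printed. The Ccng1 window is chr10:25684877-25685126 (minus strand).
Cdkn1a: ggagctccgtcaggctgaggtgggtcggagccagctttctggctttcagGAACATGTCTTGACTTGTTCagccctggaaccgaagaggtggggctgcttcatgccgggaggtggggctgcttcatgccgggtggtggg
Ccng1: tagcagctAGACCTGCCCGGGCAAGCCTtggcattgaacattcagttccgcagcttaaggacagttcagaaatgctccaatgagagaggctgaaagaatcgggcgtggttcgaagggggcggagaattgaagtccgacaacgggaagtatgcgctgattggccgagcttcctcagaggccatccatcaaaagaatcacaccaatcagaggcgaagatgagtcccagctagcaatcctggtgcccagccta
The Cdkn1a element lies at chr20:7150731-7150750 and begins 201 bases before the start. The Ccng1 element lies at chr10:25685099-25685118 and begins 242 bases before the start.

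All values are log2 signals after robust multichip average (RMA) normalization, so a difference of 1 is a doubling. The array medians ran from 6.52 to 6.64 in bone marrow, from 6.88 to 7.06 in heart and from 6.82 to 6.96 in liver. The marker genes went with the labelled tissues: 9 erythroid genes averaged 12.96 in marrow, 10 cardiac muscle genes 14.12 in heart, and 15 hepatocyte genes 14.46 in liver. Several hearts also carried hepatocyte transcripts, whose mean over the 96 hearts was 7.16 with an SD of 1.77 and a highest level of 14.03. The highest levels were in hearts of rats given temsirolimus. Each group held 2 rats whose arrays were run on one set of plates and 2 on another, and this array set was a term in every fit. Whether the array sets follow the dosing days is not known. The plates also differed between the 3 times, so that plate and time of sampling cannot be told apart. Of the liver arrays, 1 each in the sunitinib 24 h and temsirolimus F68/PG/PEG400 24 h groups stood apart from their replicates, as did 1 marrow array of the temsirolimus F68/PG/PEG400 6 h group.

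Ccng1 was highest in heart and lowest in liver. Its mean over 96 arrays was 13.06 in heart (range 12.49 to 13.25), 10.08 in marrow (9.74 to 10.54) and 8.87 in liver (7.37 to 9.34), and no 2 tissues overlapped. Cdkn1a averaged 9.59 in heart (8.35 to 10.56), 8.58 in liver (7.28 to 10.61) and 7.06 in marrow (6.55 to 8.09), with overlap between heart and liver and between liver and marrow. Rps27l averaged 7.47 in liver, 6.78 in marrow and 6.37 in heart, and the ranges of all 3 tissues overlapped. Mdm2 was read by one probe set in heart and liver, with means of 9.54 and 9.09 and overlapping ranges, and by another in marrow, where the mean was 10.01. The signal distributions differed between tissues, so these orders are descriptions and were not tested.

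In heart and liver Cdkn1a was the gene whose group means varied most. The SD of its 24 group means was 0.56 in liver and 0.33 in heart, against 0.39 and 0.24 for the SD among the 4 rats within a group. In marrow its group means had an SD of only 0.11, below the within-group SD of 0.20. For Ccng1 in heart the corresponding values were 0.05 and 0.09, the narrowest of any gene and tissue. Rps27l varied more within groups than between their means in every tissue, with SDs of 0.30 and 0.19 in heart, 0.27 and 0.14 in liver, and 0.27 and 0.21 in marrow.

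**Figure D1:**
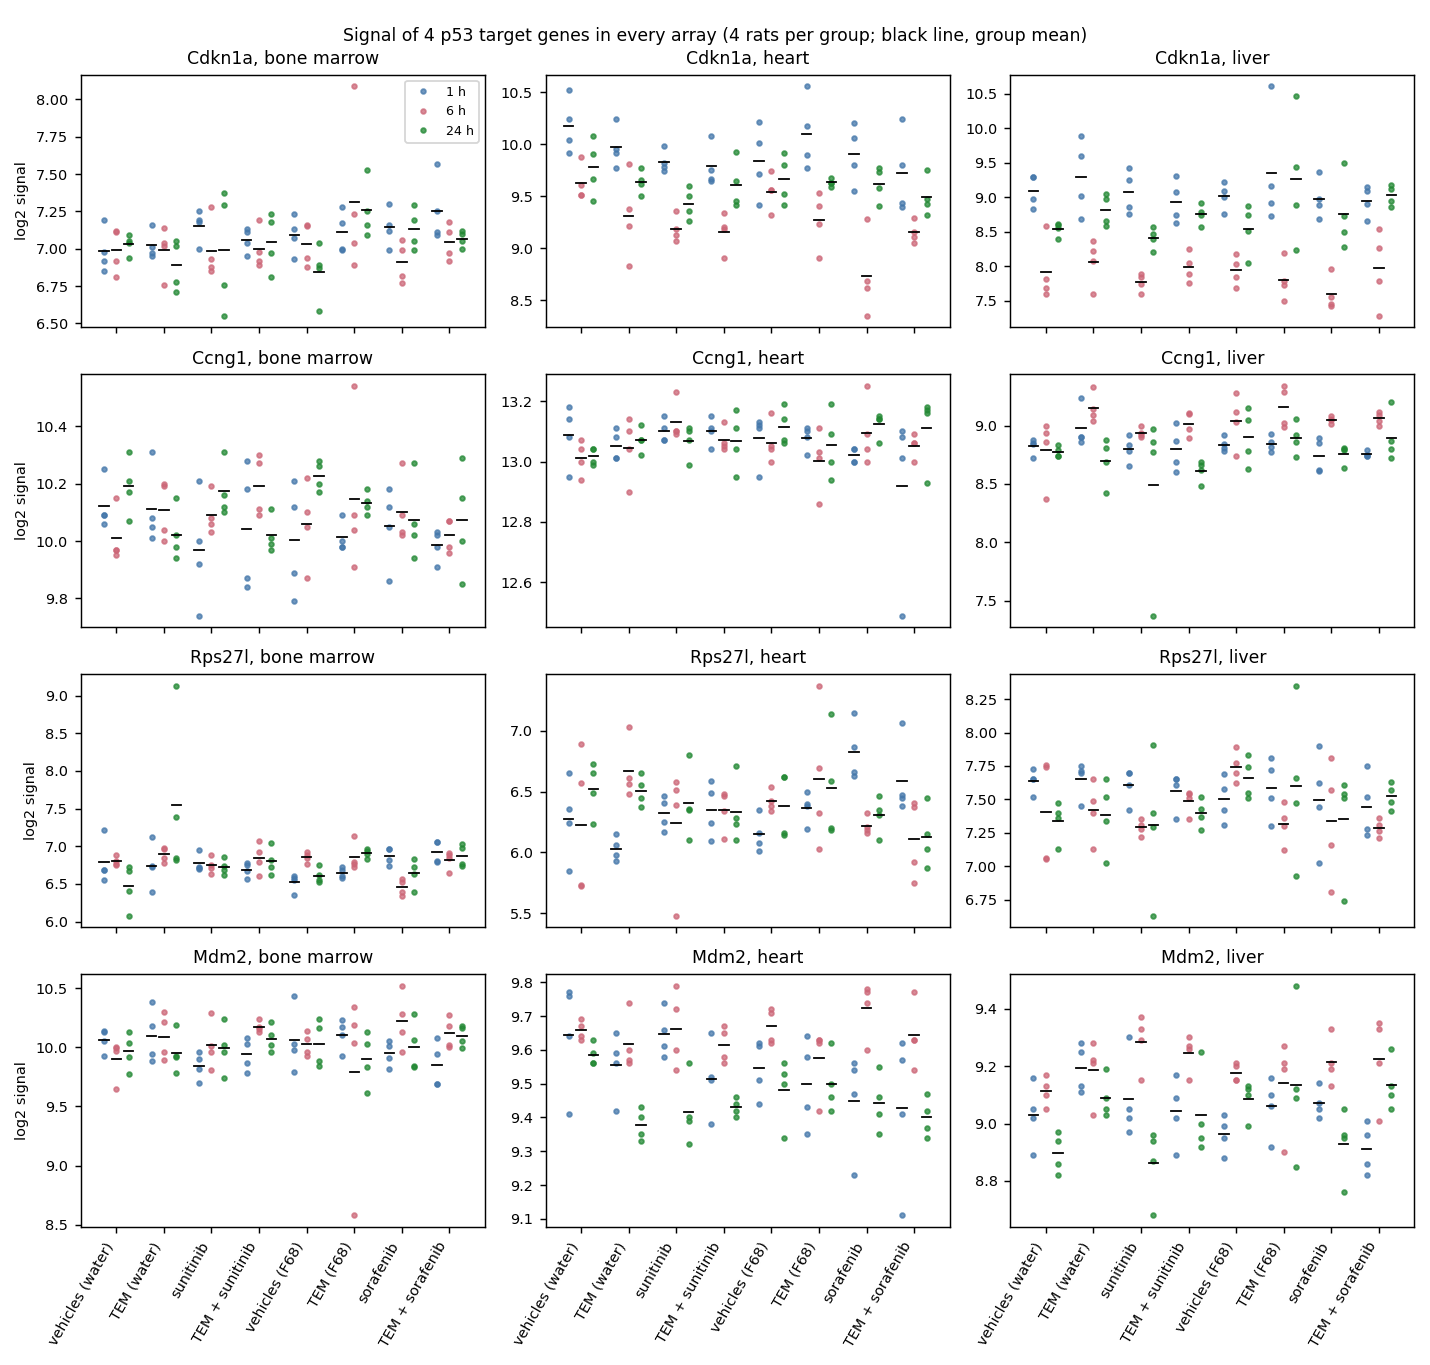
Log2 signal (y axis, scaled separately in each panel) of Cdkn1a, Ccng1, Rps27l and Mdm2 in all 288 arrays, by treatment (x axis) and time (color), with a black line at each group mean of 4 rats. Cdkn1a is lowest at 6 h in heart and liver across treatments, and a marrow array of the temsirolimus group given water stands at 9.13 for Rps27l.

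Each single agent was compared with its vehicles to ask whether the p53 targets responded to it in any tissue. Of 108 tests (4 genes, 3 tissues, 3 agents and 3 times), 3 passed an adjusted p of 0.05 in limma after Benjamini-Hochberg adjustment over all 14218 genes, and 21 had an unadjusted p under 0.05. Over all genes 1.08% of the tests in these 27 comparisons were called. Of the calls 2 were Rps27l and 1 was Cdkn1a, and no comparison held more than 1 of the genes. The changes ran from -0.81 to 0.69 with a median of -0.01. Of the 108 values 50 were positive, 55 negative and 3 zero.

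**Figure D2:**
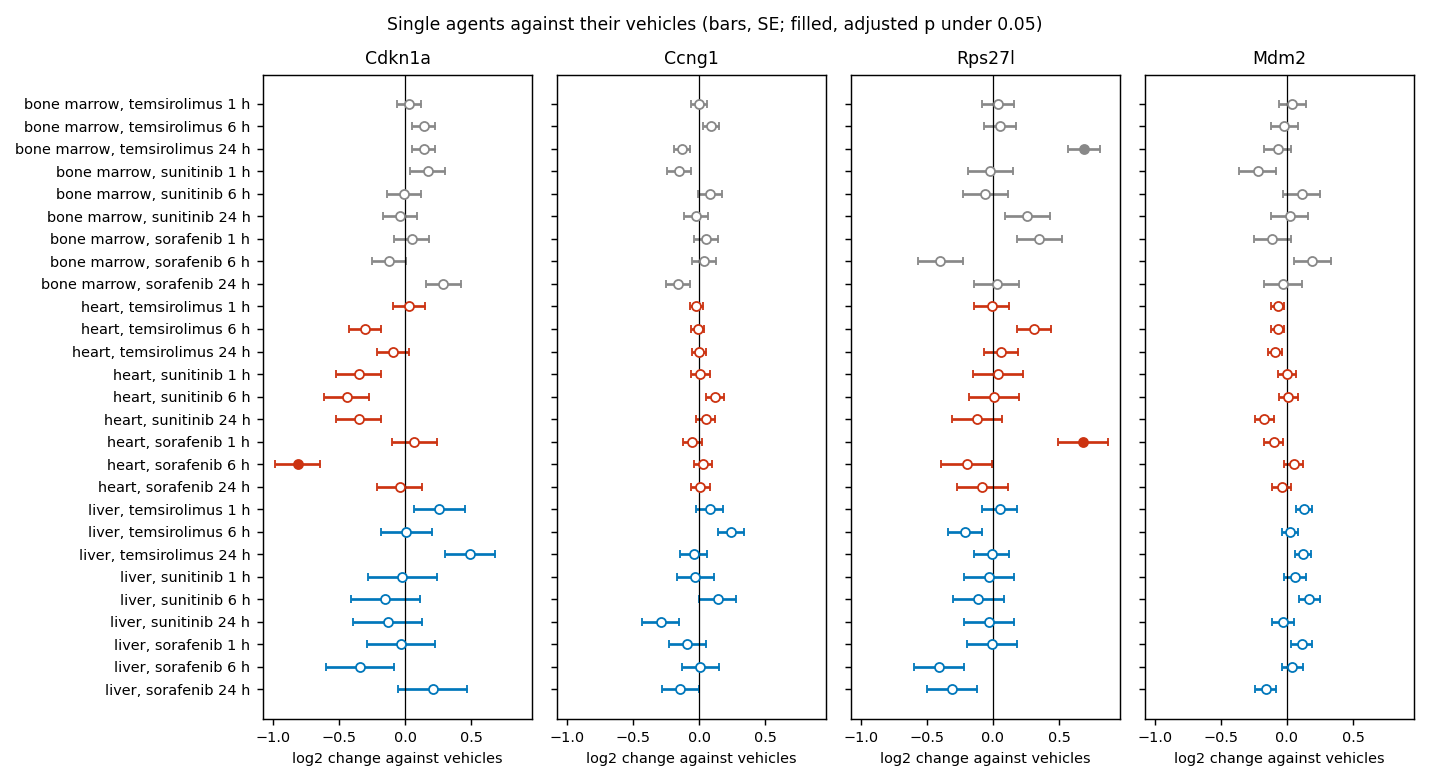
Log2 change (x axis) of each gene under each single agent against its vehicles, by tissue, agent and time (y axis), with bars for the SE and filled points where the adjusted p was under 0.05. The 3 filled points are Cdkn1a in heart 6 h after sorafenib at -0.81, Rps27l in heart 1 h after sorafenib at 0.68, and Rps27l in bone marrow 24 h after temsirolimus at 0.69.

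Cdkn1a fell in the heart 6 h after sorafenib. The 4 sorafenib hearts read 9.28, 8.35, 8.62 and 8.69, and the 4 hearts given F68/PG/PEG400 read 9.56, 9.32, 9.74 and 9.56. All 4 sorafenib values lay under the lowest vehicle value. The change was -0.81 ± 0.17 (SE, n = 4 and 4, limma adjusted p = 0.00148). In this comparison 2.98% of all genes were called and 14.2% had groups that did not overlap. At 1 h the change was 0.07 ± 0.17 and at 24 h -0.04 ± 0.17, and the change differed between the 3 times (limma F test, adjusted p = 0.0249), a test that called 5.65% of all genes. That difference between times was not called with the mean of both Cdkn1a probe sets (limma adjusted p = 0.13), without replicate 1, 3 or 4 (0.258, 0.186 and 0.0891) or within either array set (0.591 and 0.0805). Of 36 such tests over the 4 genes, 3 tissues and 3 agents, 2 were called, against 0.826% over all genes.

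The fall rested on the brighter of the 2 Cdkn1a probe sets. Probe set 1388674_at, with a mean of 9.59 in heart, gave the values above, whereas probe set 1387391_at, with a mean of 6.29, changed by -0.18 ± 0.22 (limma adjusted p = 0.696). The mean of both changed by -0.49 ± 0.17 (limma adjusted p = 0.0733). Without replicate 3 of each group it was -0.77 ± 0.21 (limma adjusted p = 0.0624). Within the first array set alone the change was -0.63 ± 0.25 (limma adjusted p = 0.276) and within the second -0.99 ± 0.20 (limma adjusted p = 0.0313). Macrophage markers were also lower in these hearts, at 8.22 to 8.37 against 8.51 to 8.84 over 8 genes, of which 1 fell and none rose in the limma fit. Megakaryocyte markers read 6.99 to 7.21 against 7.29 to 7.57 over 4 genes, none of them called. T and NK cell markers read 6.42 to 6.67 against 6.60 to 6.90, with 1 of 10 genes called lower, and endothelial markers 10.00 to 10.23 against 10.22 to 10.33, with 1 of 6 called lower. The part of these cells in the result was not tested, and in bulk tissue fewer cells of a type and less RNA per cell cannot be told apart. With the hepatocyte marker level as a covariate the change was -0.81 ± 0.17.

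With temsirolimus added, the 4 hearts given sorafenib read 9.29, 9.05, 9.11 and 9.16 at 6 h, again under all 4 vehicle hearts. In that comparison 9.23% of all genes had groups that did not overlap. The combination changed Cdkn1a by -0.40 ± 0.17 against both vehicles (limma adjusted p = 0.5). The interaction asks whether sorafenib acted differently with temsirolimus. For that, these hearts are set against those given temsirolimus and F68/PG/PEG400, and the group means were 9.15 and 9.27. The interaction was 0.69 ± 0.24 (limma unadjusted p = 0.00505, adjusted p = 0.450). The difference between the sorafenib change with temsirolimus and that without it was therefore not called.

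In hearts given sunitinib, Cdkn1a was lower than in hearts given water at all 3 times without passing the adjusted test. At 6 h the sunitinib hearts read 9.19, 9.36, 9.07 and 9.13 and the water hearts 9.88, 9.51, 9.61 and 9.51, with no overlap, as for 9.3% of all genes. The changes were -0.35, -0.44 and -0.35 at 1, 6 and 24 h, each with an SE of 0.17, and the limma adjusted p-values were 1, 0.129 and 0.227. After temsirolimus alone the change in heart was -0.30 ± 0.12 at 6 h (limma adjusted p = 0.211).

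**Figure D3:**
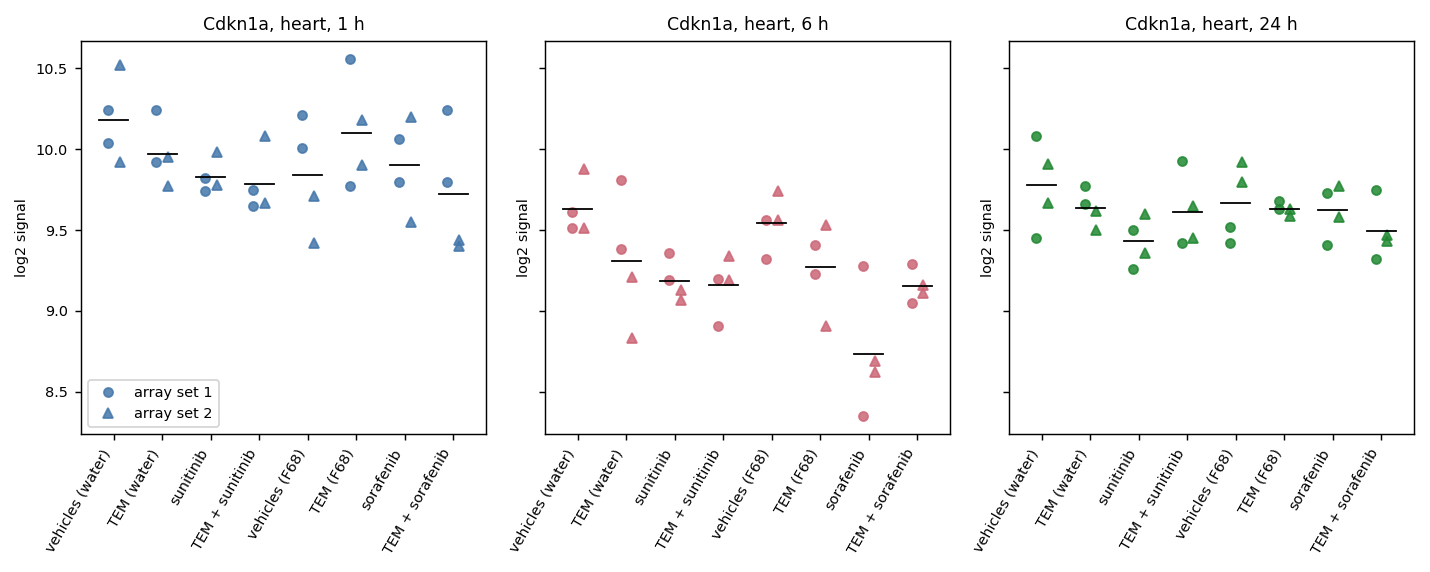
Cdkn1a log2 signal (y axis) in every heart by treatment (x axis) at 1, 6 and 24 h (panels), with circles and triangles for the 2 array sets and a line at the mean of 4 rats. At 6 h the sorafenib hearts, 8.35 to 9.28, all lie under the F68/PG/PEG400 hearts, 9.32 to 9.74.

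Rps27l rose in bone marrow 24 h after temsirolimus. The 4 rats given temsirolimus and water read 7.39, 9.13, 6.84 and 6.82, and the 4 given temsirolimus and F68/PG/PEG400 read 6.83, 6.90, 6.94 and 6.96. The vehicle rats read 6.08, 6.40, 6.72 and 6.67 with water and 6.62, 6.75, 6.52 and 6.55 with F68/PG/PEG400. All 8 temsirolimus marrows thus lay above all 8 vehicle marrows, with a lowest value of 6.82 against a highest of 6.75, and a single array stood far above the rest. The change was 0.69 ± 0.12 (SE, n = 8 and 8, limma adjusted p = 0.00155). The test called 0.352% of all genes, and 0.204% of all genes had groups that did not overlap.

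The size of this rise depended on the array at 9.13. Without it the change was 0.44 ± 0.08 and remained called (limma adjusted p = 0.00206). Without replicate 1 or replicate 2 of every group it was 0.72 ± 0.15 or 0.43 ± 0.10 and was not called (limma adjusted p = 0.0804 and 0.121). Within the array sets it was 0.87 ± 0.19 and 0.50 ± 0.10 (limma adjusted p = 0.0311 and 0.138). In rats given water the change was 1.08 ± 0.17 (limma adjusted p = 0.000524, 0.0563% of genes called), and in rats given F68/PG/PEG400 it was 0.30 ± 0.17 (limma adjusted p = 0.823). The marker levels of the array at 9.13 lay within those of the other temsirolimus marrows at 24 h for the erythroid genes, at 13 where the 8 ran from 12.92 to 13.08, and stood at the upper end for the neutrophil genes, at 12.74 where they ran from 12.40 to 12.74. That array was also at the upper end for T and NK cell genes, at 6.93 where the 8 ran from 6.58 to 6.93. For proliferation genes it was at the lower end, at 11.16 where they ran from 11.16 to 11.37. Its endothelial level was 8.02, where they ran from 8.00 to 8.38. Megakaryocyte markers over the 8 temsirolimus marrows read 11.81 to 12.22 against 11.99 to 12.66 in the vehicle marrows, with none of 4 genes called. The part of these cells in the result was not tested.

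In rats that also received an oral drug, temsirolimus was not followed by a called rise of Rps27l in marrow. With sunitinib the temsirolimus marrows read 7.05, 6.82, 6.72 and 6.62 and those on sunitinib alone 6.69, 6.86, 6.74 and 6.62. With sorafenib they read 6.98, 7.03, 6.74 and 6.76 against 6.72, 6.63, 6.83 and 6.39. The groups overlapped, and the change over both was 0.15 ± 0.12 (limma adjusted p = 0.965). The interaction with sunitinib was -1.0 ± 0.25 (limma unadjusted p = 0.000131, adjusted p = 0.929), in which the array at 9.13 takes part, and that with sorafenib was -0.06 ± 0.25.

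The temsirolimus change of Rps27l at 24 h was 0.69 ± 0.16 larger in marrow than in liver when compared within rats (limma adjusted p = 0.012), a test that called 0.95% of all genes. Without the array at 9.13 this difference was 0.50 ± 0.14 (limma adjusted p = 0.0889) and was no longer called. Against heart the difference was 0.62 ± 0.17 (limma adjusted p = 0.206). Of the 36 comparisons of the temsirolimus change between tissues, Rps27l in marrow against liver at 24 h was the only one called, where 0.182% were called over all genes.

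Rps27l also rose in the heart 1 h after sorafenib. The sorafenib hearts read 6.87, 6.66, 6.63 and 7.15 and the F68/PG/PEG400 hearts 6.08, 6.01, 6.35 and 6.16, with no overlap. The change was 0.68 ± 0.19 (SE, n = 4 and 4, limma adjusted p = 0.0412). The test called 1.81% of all genes and 10.9% had groups that did not overlap. Rps27l is a noisy signal in heart, and the 4 hearts of the water vehicle group at 6 h ran from 5.72 to 6.89. The hearts given sorafenib after temsirolimus read 6.47, 6.45, 6.38 and 7.06, a change of 0.44 ± 0.19 (limma adjusted p = 0.191). The heart at 7.06 had the hepatocyte marker level of 14.03, and without it and the other doubted hearts the change was 0.31 ± 0.19 (limma adjusted p = 0.844).

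The call for Rps27l in heart was close to the threshold. Within the first and second array sets the change was 0.72 ± 0.21 and 0.63 ± 0.24 (limma adjusted p = 0.698 and 0.154), and without array set terms the limma adjusted p was 0.072. Without replicate 1, 3 or 4 of every group it was 0.3, 0.243 or 0.172, and the change stayed between 0.59 and 0.73. The hepatocyte marker level ran from 6.15 to 6.82 in the sorafenib hearts and from 6.09 to 7.69 in the vehicle hearts, and with that level as a covariate the change was 0.70 ± 0.18 (limma adjusted p = 0.0337). At 6 and 24 h the sorafenib changes were -0.20 ± 0.19 and -0.08 ± 0.19, and the change differed between times (limma F test, adjusted p = 0.0478). That call was lost after a further quantile normalization (limma adjusted p = 0.0516), without array set terms (0.0907), without replicate 1, 3 or 4 (0.244, 0.289 and 0.178) and within either array set (0.427 and 0.194).

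**Figure D4:**
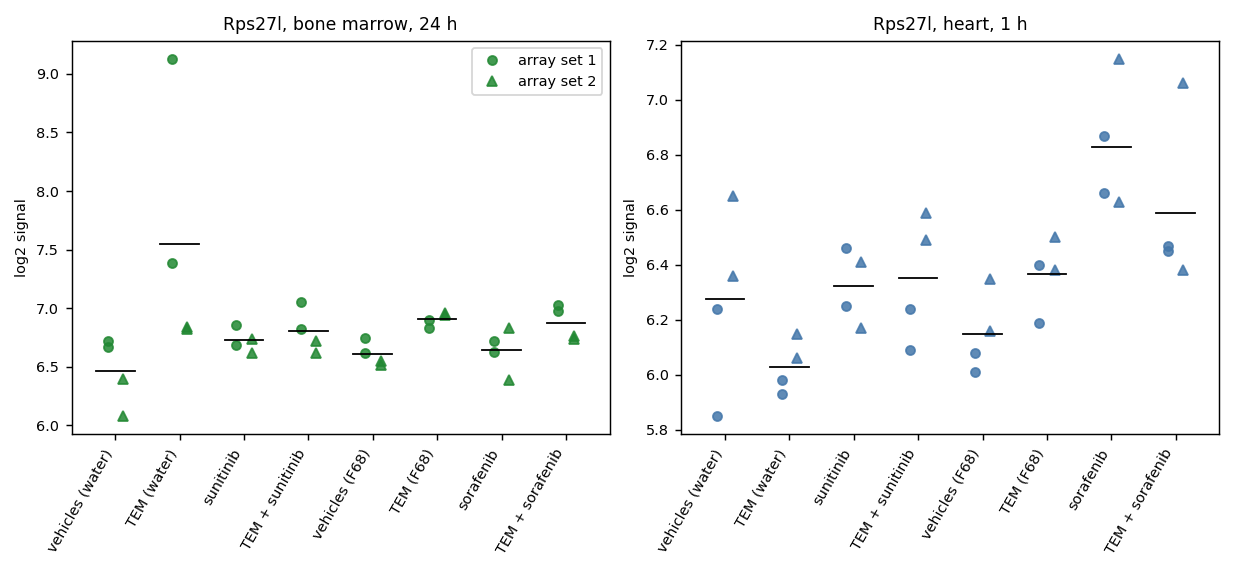
Rps27l log2 signal (y axis) by treatment (x axis) in bone marrow at 24 h (left) and in heart at 1 h (right), with circles and triangles for the 2 array sets and a line at the mean of 4 rats. Temsirolimus marrows without an oral drug start at 6.82, above every vehicle marrow (highest 6.75), and the array at 9.13 stands alone.

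Ccng1 passed no single agent test when all arrays were used. Its 27 changes ran from -0.29 to 0.24, and 3 had an unadjusted p under 0.05 in the limma fit. The lowest was in liver 24 h after sunitinib, where the arrays read 8.77, 7.37, 8.86 and 8.97 against 8.83, 8.74, 8.79 and 8.74 with water. A single liver at 7.37 carried that value, and the other 3 lay within or above the vehicle range. The change was -0.29 ± 0.14 (limma adjusted p = 0.118). It was called without replicate 2 (-0.49 ± 0.16, limma adjusted p = 0.017) and in the first array set, which holds that liver (-0.69 ± 0.23, limma adjusted p = 0.0274), and was 0.12 ± 0.15 in the second (limma adjusted p = 1). Without the liver at 7.37 it was 0.07 ± 0.10 (limma adjusted p = 1). In heart, where Ccng1 was highest, the temsirolimus changes at 1, 6 and 24 h were all within 0.02 of 0.

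Mdm2 passed no single agent test with the probe set of the highest mean, and its 27 changes ran from -0.22 to 0.19. In heart 1 h after sorafenib it was -0.10 with all arrays, and was called without replicate 2 (-0.23 ± 0.07, limma adjusted p = 0.0225). It did pass in the liver 24 h after temsirolimus in rats that also had an oral drug, the only call of 36 tests of that kind (over all genes 1.04% were called). There the temsirolimus livers read 8.95, 8.92, 9.0 and 9.25 with sunitinib and 9.13, 9.05, 9.26 and 9.10 with sorafenib. The livers on the oral drug alone read 8.96, 8.68, 8.94 and 8.87 with sunitinib and 8.76, 8.96, 8.95 and 9.05 with sorafenib. The groups overlapped, and the change was 0.19 ± 0.06 (SE, n = 8 and 8, limma adjusted p = 0.0270) in a comparison that called 7.86% of all genes.

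All 3 Mdm2 probe sets changed in the same direction in this comparison, by 0.19, 0.35 and 0.39, with limma adjusted p-values of 0.0310, 0.0924 and 0.0150. In rats without an oral drug the temsirolimus change of Mdm2 in liver was 0.12 ± 0.06 (limma adjusted p = 0.290). After a further quantile normalization of the livers the change with an oral drug was 0.07 ± 0.06 (limma adjusted p = 0.514), and without the sunitinib liver that stood apart it was 0.17 ± 0.06 (limma adjusted p = 0.0901). Without replicate 3 or 4 it was 0.18 ± 0.07 or 0.15 ± 0.06 (limma adjusted p = 0.0615 and 0.269). In the same livers 5 of 18 proliferation genes fell and 2 of 6 endothelial and 1 of 4 megakaryocyte markers rose, and their part in the result was not tested.

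In heart the Mdm2 probe sets disagreed. At 6 h after sorafenib, probe set 1384427_at changed by 0.55 ± 0.17 (limma adjusted p = 0.0494, over all probe sets of one symbol), probe set 1383485_at by 0.69 ± 0.28 (limma adjusted p = 0.140), and probe set 1383288_at, the brightest, by 0.05 ± 0.07. The last gave the value reported for the gene. At 24 h after sunitinib, probe set 1383485_at changed by 0.93 ± 0.28 (limma adjusted p = 0.0278) and probe set 1383288_at by -0.17 ± 0.07 (limma adjusted p = 0.102). Which transcripts each probe set reads was not examined.

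Against both vehicles, neither combination gave a called change of any of the 4 genes. The 72 tests ran from -0.47 to 0.48, with a lowest limma adjusted p of 0.191, and 8 had an unadjusted p under 0.05. Over all genes 0.42% of the tests of combinations were called, 0.000781% of the interactions and 0.0117% of the comparisons between oral vehicles. None of the 72 interactions was called in limma (5 with an unadjusted p under 0.05), and none of the 36 comparisons between the oral vehicles was (2 with an unadjusted p under 0.05). The largest values in the latter were -0.34 and 0.34.

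In liver Cdkn1a fell between 1 and 6 h and rose again by 24 h. In the livers of rats given vehicles only, Cdkn1a read from 8.75 to 9.29 at 1 h, with a median of 9.05. At 6 h it read from 7.59 to 8.58, with a median of 7.83, and at 24 h from 8.05 to 8.87, with a median of 8.57. All 8 livers at 6 h lay under all 8 at 1 h. The change from 1 to 6 h was -1.13 ± 0.19 (SE, n = 8 and 8, limma adjusted p = 5.44e-05), where 2.71% of all genes were called and 0.9% did not overlap. From 6 to 24 h it rose by 0.61 ± 0.19 (limma adjusted p = 0.0382, 4.75% of genes called), and over the 3 times the F test gave an adjusted p of 7.76e-05 (limma, 4.89% of genes called).

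The same course was seen in the rats given an active drug, which share no animals with the vehicle rats. This comparison was added after the vehicle result was known. Treated and vehicle rats of a time were spread over the same array sets, so here too plate and time cannot be told apart. In 24 treated livers per time, Cdkn1a ran from 8.62 to 10.61 at 1 h, from 7.28 to 8.54 at 6 h and from 8.21 to 10.46 at 24 h. The change from 1 to 6 h was -1.23 ± 0.11 (limma adjusted p = 4.59e-15, 19.8% of genes called, 0.0985% not overlapping) and from 6 to 24 h 0.97 ± 0.11 (limma adjusted p = 2.46e-11, 43.6% of genes called). Taken over all 32 livers at each time, whatever the treatment, the lowest value at 1 h (8.62) was above the highest at 6 h (8.58). The share of all genes that separate in this pooled way was not counted. It cannot exceed the 0.0985% found for the treated livers alone.

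The second Cdkn1a probe set moved the same way in the vehicle livers, by -0.66 ± 0.14 from 1 to 6 h (limma adjusted p = 0.00353). Within the 2 array sets the change was -1.52 ± 0.26 (limma adjusted p = 0.00433) and -0.74 ± 0.23 (limma adjusted p = 0.096). From 1 to 6 h 10 of 18 proliferation genes were called lower in these livers and none higher, with group means of 8.45 and 7.72. From 6 to 24 h 3 of the 18 were called higher and none lower, with group means of 7.72 and 8.04. Their part in the result was not tested. The later rise of Cdkn1a was less stable than the fall. The second probe set changed by 0.26 ± 0.14 from 6 to 24 h (limma adjusted p = 0.434) and the mean of both by 0.44 ± 0.14 (limma adjusted p = 0.0628). The rise was not called within either array set (limma adjusted p = 0.296 and 0.352) or without replicate 1, 3 or 4 (0.56 to 0.60, limma adjusted p from 0.134 to 0.347). Hepatocyte markers kept to 14.46 to 14.55 at 1 h and 14.43 to 14.49 at 6 h.

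In treated hearts Cdkn1a followed a like course, which was not called in vehicle hearts when all arrays were used. The vehicle hearts ran from 9.42 to 10.52 at 1 h, from 9.32 to 9.88 at 6 h and from 9.42 to 10.08 at 24 h. Their change from 1 to 6 h was -0.42 ± 0.12 (limma adjusted p = 0.0606) and was not called. In a refit without the doubted hearts of rats given temsirolimus it was called (limma adjusted p = 0.0392). From 6 to 24 h the change in vehicle hearts was 0.13. With all arrays the F test over the 3 times was not called there (limma adjusted p = 0.0745). In the 24 treated hearts per time Cdkn1a fell by 0.75 ± 0.07 on the log2 scale from 1 to 6 h (limma adjusted p = 3.67e-14, 16.7% of genes called) and rose by 0.44 ± 0.07 from 6 to 24 h (limma adjusted p = 1.09e-06, 20.2% of genes called). These hearts include those given sorafenib or sunitinib, whose Cdkn1a at 6 h changed by -0.81 and -0.44 against their vehicles. The treated course is therefore not one of time alone. In marrow, vehicle values at the 3 times averaged 7.04, 7.01 and 6.94, and no change of Cdkn1a with time was called in vehicle rats, where 0.143% of the tests over all genes were.

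Ccng1 and Mdm2 moved opposite to Cdkn1a over the day in treated livers. From 1 to 6 h Ccng1 rose by 0.24 ± 0.06 (limma adjusted p = 0.000707) and Mdm2 by 0.16 ± 0.03 (limma adjusted p = 0.000126). From 6 to 24 h they changed by -0.34 ± 0.06 and -0.19 ± 0.03 (limma adjusted p = 1.67e-06 and 3.04e-06). Of all genes 19.8% were called in treated livers from 1 to 6 h and 43.6% from 6 to 24 h. In vehicle livers Mdm2 changed by 0.15 ± 0.06 and -0.15 ± 0.06 over these intervals (limma adjusted p = 0.144 and 0.115), neither of them called. Treated hearts had the same course of Mdm2, with changes of 0.12 ± 0.03 and -0.21 ± 0.03 (limma adjusted p = 0.000655 and 6.33e-09). Of all genes 16.7% and 20.2% were called in those heart comparisons. Rps27l was not called between any 2 times in any tissue when all arrays were used. Without the sunitinib liver that stood apart, its change in treated livers from 1 to 6 h was called, at -0.20 ± 0.07 (limma adjusted p = 0.0272). With all arrays 19.8% of all genes were called there.

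**Figure D5:**
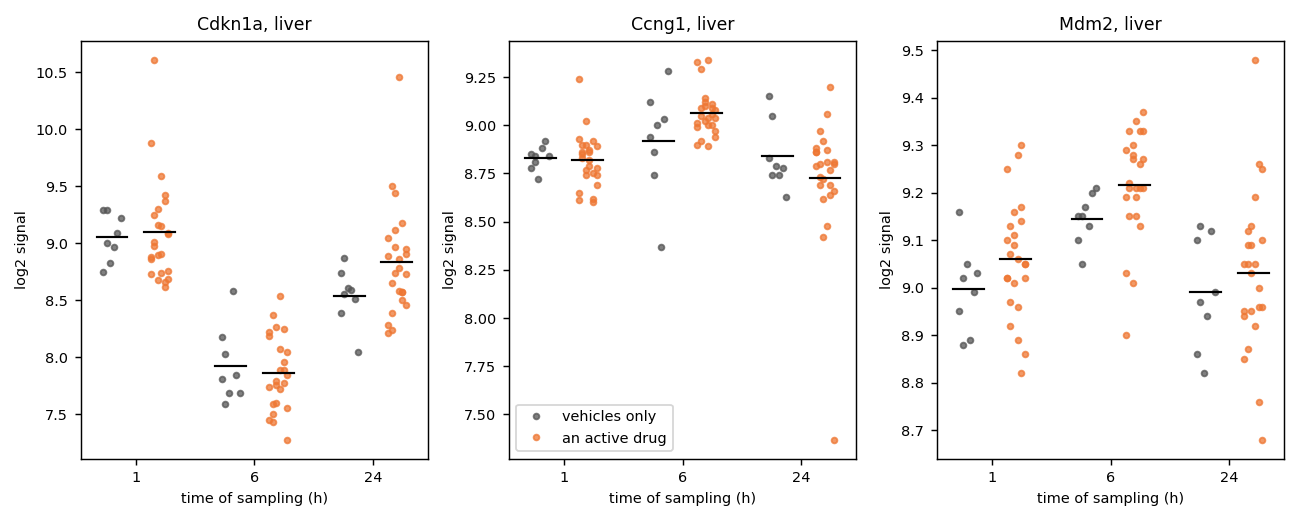
Log2 signal (y axis) of Cdkn1a, Ccng1 and Mdm2 in liver by time of sampling (x axis), in gray for the 8 rats per time given vehicles only and in orange for the 24 given an active drug, with a line at each mean. All Cdkn1a values at 6 h, at most 8.58, lie below all values at 1 h, at least 8.62. Between these times 0.9% of all genes did not overlap in the vehicle livers and 0.0985% in the treated livers.

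The 4 genes shared no single pattern over groups, and the correlations of their pairs had both signs. Over the 24 group means of a tissue, Pearson's r between Cdkn1a and Mdm2 was -0.60 in marrow, -0.34 in heart and -0.47 in liver. The highest value was 0.75, between Ccng1 and Mdm2 in liver, and Cdkn1a and Rps27l had 0.52 there. Cdkn1a and Ccng1 had -0.49 in liver, as did Ccng1 and Rps27l in heart. The remaining pairs ran from -0.28 to 0.19. These are descriptions over means that share the time of sampling and the plates. The gene whose group means were most like those of Cdkn1a was Slc45a3 in liver (r = 0.94), Dot1l in heart (r = 0.91) and Rhod in marrow (r = 0.82). For Ccng1 it was Sclt1 in liver (r = 0.91), Prdx3 in heart (r = 0.88) and Cyfip1 in marrow (r = 0.73). For Mdm2 it was C17h5orf24 in liver (r = 0.88), Zcchc14 in heart (r = 0.91) and Lbr in marrow (r = 0.87). For Rps27l it was Mto1 in liver (r = 0.74), Dtymk in heart (r = 0.84) and Tcea1 in marrow (r = 0.86). The highest Rps27l group mean in marrow, 7.54, was that of the group with the array at 9.13. Values of r without these marrow groups are not given here.

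Other genes of the p53 pathway were taken from a list of 38 regulators and targets, of which 28 were measured. Over the 27 single agent comparisons their 756 tests gave 2 rises and 9 falls, and the list medians ran from -0.16 to 0.08. Over all genes 1.08% of the tests in these comparisons were called, against 11 of 756 here. With temsirolimus pooled over both oral vehicles, no member of the list was called in marrow under a single agent. Against F68/PG/PEG400 alone, 1 list member was higher and 7 were lower in marrow 6 h after temsirolimus, where 17.9% of all genes were called. Without the marrow array of that group that stood apart, 0 list members and 0 of all 14218 genes were called there by limma. The damage kinase Atm was among the genes not analysed here.

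The heart 6 h after sorafenib, where Cdkn1a fell, had 1 of the 28 genes higher and 2 lower, and 2.98% of all genes were called. Sesn1, a stress-induced inhibitor of mTORC1 signaling, rose by 0.68 ± 0.16 (limma adjusted p = 0.00531). Bbc3, which encodes the apoptosis inducer Puma, changed by -0.31 ± 0.07 (limma adjusted p = 0.00369), and Usp7, a deubiquitinase of Mdm2 and p53, by -0.43 ± 0.12 (limma adjusted p = 0.0327). The list median was 0.08, against -0.03 over all genes. Cdkn1c, a relative of Cdkn1a that encodes the cell cycle inhibitor p57, rose by 0.64 ± 0.13 (limma adjusted p = 0.000754), opposite to Cdkn1a. The p53 inhibitor Mdm4 changed by 0.14 ± 0.25.

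The heart 1 h after sorafenib had 1 lower gene, Plk2, a polo-like kinase, at -0.52 ± 0.11 (limma adjusted p = 0.0371), beside the rise of Rps27l. In that comparison 1.81% of all genes were called. The list median there was -0.02 against 0.02 over all genes, and Mdm4 changed by -0.63 ± 0.25 (limma adjusted p = 0.134). In marrow 24 h after temsirolimus none of the 28 was called in limma, and none had an unadjusted p under 0.05, with a list median of 0.02 against 0.00. Of all genes 0.352% were called in this marrow comparison. Mdm4 changed by 0.09 ± 0.21 there. Usp7 was also lower in the heart 24 h after sunitinib, at -0.44 ± 0.12 (limma adjusted p = 0.0277), where 3.58% of all genes were called.

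Among the 27 single agent comparisons, the liver 24 h after temsirolimus had the most list members called, 1 higher and 3 lower, in a comparison that called 3.09% of all genes. Chek2, a DNA damage kinase that phosphorylates p53, changed by -0.72 ± 0.11 (limma adjusted p = 8.27e-06). The repair genes Ddb2 and Polh changed by -0.39 ± 0.09 and -0.32 ± 0.09 (limma adjusted p = 0.00616 and 0.0202), while the nuclease gene Aen rose by 0.36 ± 0.11 (limma adjusted p = 0.0413). Cdkn1c rose by 0.44 ± 0.10 (limma adjusted p = 0.00378). Cdkn1a in the same livers ran from 8.24 to 10.46 against 8.05 to 8.87, a change of 0.49 ± 0.19 that was not called (limma adjusted p = 0.151). Without replicate 2 of every group it was called (0.67 ± 0.18, limma adjusted p = 0.0293). The temsirolimus livers include the array of the F68/PG/PEG400 24 h group that stood apart. In these livers 7 of 18 proliferation genes were called lower, and their part in the result was not tested.

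With an oral drug, temsirolimus at 24 h gave 1 higher and 3 lower list members in liver, beside Mdm2, where 7.86% of all genes were called. Chek2 changed by -0.38 ± 0.11 and Polh by -0.26 ± 0.09 (limma adjusted p = 0.0251 and 0.0488). Sfn, which encodes 14-3-3 sigma, changed by -0.24 ± 0.07 (limma adjusted p = 0.0335), and Plk2 rose by 0.49 ± 0.14 (limma adjusted p = 0.0208). Cdkn1c rose by 0.45 ± 0.10 (limma adjusted p = 0.00315). Mdm4 changed by 0.21 ± 0.25. These rats share no arrays with those given temsirolimus alone, and in both sets Chek2 and Polh were lower and Cdkn1c higher. In liver 24 h after sunitinib, Rchy1, a ubiquitin ligase of p53, changed by -0.49 ± 0.14 and Triap1, an inhibitor of apoptosis, by -0.37 ± 0.12 (limma adjusted p = 0.0418 and 0.0457), where 9.99% of all genes were called. That comparison includes the sunitinib liver that stood apart, and values of Rchy1 and Triap1 without that array are not given here.

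Between times, Gadd45a, a p53 target that acts in growth arrest, moved opposite to Cdkn1a in vehicle livers. It rose by 1.09 ± 0.26 from 1 to 6 h (limma adjusted p = 0.0101) and changed by -1.07 ± 0.26 from 6 to 24 h (limma adjusted p = 0.00649). Sesn2, a relative of Sesn1, fell with Cdkn1a from 1 to 6 h, by 0.48 on the log2 scale with an SE of 0.13 (limma adjusted p = 0.0263). These were the only 2 of the 28 list genes called from 1 to 6 h in vehicle livers, where 2.71% of all genes were called. Mdm4 changed by -0.04 ± 0.25 over that interval. From 6 to 24 h the 2 called list genes were Gadd45a and Apaf1, where 4.75% of all genes were called. Apaf1 changed by -0.32 ± 0.09 (limma adjusted p = 0.0264).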

How the data were processed

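Total RNA was labelled and hybridized to Affymetrix rat expression arrays. The authors deposited log2 values of 31099 probe sets after robust multichip average processing (background correction, quantile normalization and median polish). Software versions are not given in the sources used here. Of the probe sets, 20832 carried 1 gene symbol in the platform annotation, 436 carried several and 9831 were not listed, which left 14218 genes.

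Groups came from the sample titles. Within each tissue a linear model was fitted with limma 3.58.1 in R 4.3.3, with 24 group means and 3 array set terms, 1 for each time. Temsirolimus was compared over both oral vehicles, and p-values were adjusted by the Benjamini-Hochberg method over 14218 genes, with a threshold of 0.05. The array sets were read from array names in the study's supplement. Differences between tissues were taken within a rat and used the probe set with the highest mean over both tissues. Arrays from the same rat are paired by animal, and the median correlation of residuals over genes was -0.00104 for marrow and heart, 0.0487 for marrow and liver, and 0.0483 for heart and liver. The scripts were tested on simulated data.

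Named were the 4 measured members, up to 4 called genes of the p53 lists per single agent comparison, Mdm4 where a member was called, and the gene most like each member. Rps27 fell under this rule but had no probe set of 1 symbol. Members and lists were chosen with earlier results of these data known. Alternatives were a filter on mean signal of at least 6, a further quantile normalization, no array set terms, the mean of all probe sets of a gene, covariates for the hepatocyte markers in heart and for an N2 mark on 8 marrow labels, arrays left out, single array sets, and single oral vehicles. The number of arrays limits the precision.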

Additional observations from a re-analysis of the deposited data

Results flagged for a closer look

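Cdkn1a and Rps27l in heart were flagged because their sorafenib changes differed between 1, 6 and 24 h (limma F tests, adjusted p = 0.0249 and 0.0478), and Rps27l because its temsirolimus change at 24 h differed between marrow and liver (limma adjusted p = 0.0120).

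The 4 genes in 72 groups of 4 rats gave 288 sets of 4 values, and in 17 of them 1 array lay far from the other 3 by Dixon's criterion, where chance gives about 14.4. An array can count for more than 1 gene. For Ccng1 in heart these arrays read 12.95 (vehicles with F68/PG/PEG400, 1 h), 13.23 (sunitinib, 6 h), 12.49 (temsirolimus and sorafenib, 1 h) and 12.93 (temsirolimus and sorafenib, 24 h). For Ccng1 in liver they read 8.64 (sorafenib, 24 h), 7.37 (sunitinib, 24 h) and 9.24 (temsirolimus with water, 1 h), and in marrow 10.25 and 10.15 (vehicles with water, 1 and 6 h). For Mdm2 they read 9.42 in heart (temsirolimus with F68/PG/PEG400, 6 h), and in marrow 9.65 (vehicles with water, 6 h) and 8.58 (temsirolimus with F68/PG/PEG400, 6 h). For Rps27l they read 7.06 in heart (temsirolimus and sorafenib, 1 h), 6.74 (sorafenib, 24 h) and 7.35 (temsirolimus and sunitinib, 1 h) in liver, and 6.95 (sunitinib, 1 h) and 7.14 (temsirolimus with F68/PG/PEG400, 6 h) in marrow. The heart array at 12.49 for Ccng1 is the one at 7.06 for Rps27l, and it also had the highest hepatocyte marker level of all hearts, 14.03. The marrow array at 9.13 for Rps27l did not meet the criterion, since another rat of its group read 7.39.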

How the results depend on the processing

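None of the 4 called drug changes reversed its direction under the alternatives in which it was refitted, whereas changes that were not called did so, such as Ccng1 in liver 24 h after sunitinib (0.12 within the second array set). Of 108 single agent tests, 3 were called as reported, from 1 to 5 when replicate 1, 2, 3 or 4 of every group was left out, 1 within the second array set, and 5 with every probe set of a member tested on its own (an alternative chosen after seeing the data). The 1 call for temsirolimus with an oral drug became 0 after a further quantile normalization and without the liver array of the sunitinib 24 h group that stood apart, and 0 to 1 with a replicate left out. The 2 differences of a drug change between times became 1 after a further quantile normalization and 1 without array set terms, and 0 to 2 with a replicate left out. With the mean of all probe sets they were again 2, but Mdm2 in heart (limma adjusted p = 0.0365) took the place of Cdkn1a. The 1 test of a gene in a tissue called between times in vehicle rats became 2 with the mean of all probe sets and 2 without the liver array named above and 3 doubted hearts of rats given temsirolimus, in both through Cdkn1a in heart. The 1 call between tissues was 0 without the marrow array at 9.13 (also chosen after seeing the data), 0 to 1 with a replicate left out, and 1 with tissues as independent arrays in place of the rat as the block (limma adjusted p = 0.0368). Leaving out a replicate leaves 3 arrays a group. The fall of Cdkn1a in heart after sorafenib ran from -0.99 to -0.49, and was -0.18 by the dimmer probe set alone, and the rise of Rps27l in marrow after temsirolimus from 0.30 to 1.08. Combinations, interactions and oral vehicles stayed at 0 calls under the 12 alternatives run for each. The cause of these differences was not tested.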
